A study of Homo sapiens with 12 samples.

Results

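The cholesterol and fatty acid synthesis genes controlled by the sterol regulatory element-binding proteins (SREBPs) were followed in RNA-seq libraries of Hs 578T cells, a triple-negative breast cancer (TNBC) line. The members were 31 genes of 55242 counted, chosen by name, and all 31 were listed in every library and passed the filter on low counts in every comparison. They comprised 5 regulators (SREBF1, SREBF2, SCAP, INSIG1, INSIG2), 18 genes of the sterol arm and 8 genes of the fatty acid arm. SREBF1 and SREBF2 encode transcription factors that are held in the membrane of the endoplasmic reticulum. When membrane sterols are low, the escort protein encoded by SCAP carries them to the Golgi, where they are cut and released to the nucleus, and when sterols are high the INSIG proteins hold SCAP back. The SREBF2 product acts mainly on sterol synthesis and uptake and the SREBF1 products mainly on fatty acid synthesis, often together with the factor NF-Y, which binds a CCAAT box nearby.

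The cells had been transduced with lentiviral vectors for exogenous full-length NRF2 or, as control, for GFP, and were cultured for 8 h with or without Cyss (cystine, the oxidized form of cysteine), which gave 4 groups of 3 libraries each. The medium with Cyss held 0.8 mM l-cystine, and both media held 10% serum, 0.2 mM l-methionine and 2 mM l-glutamine, so that every group received serum lipids. NRF2, encoded by NFE2L2, is the transcription factor of the oxidative stress response and binds antioxidant response elements (AREs). The design asks how the genes respond to Cyss withdrawal in GFP cells and in NRF2 cells, whether these responses differ, and how exogenous NRF2 changes the genes in each medium. All groups carried a transgene, the sources used here name neither a clone nor the promoter of the vectors, and they do not say that the libraries of a group came from separate cultures, so p-values measure the spread between these libraries, which may be technical.

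Each library held between 27334061 and 44734611 reads on genes. NFE2L2 counts, which could include reads of the transgene, were higher in all 6 NRF2 libraries (6567 to 8448 normalized counts) than in all 6 GFP libraries (3662 to 4682). The labels call the line an epithelial tumor line, but of 8 epithelial markers 5 (CDH1, EPCAM, CLDN3, CLDN7 and OCLN) had group means of at most 10.8 normalized counts, whereas all 7 mesenchymal markers were abundant and summed to between 1615140 and 1709340. The 8 epithelial markers summed to between 945 and 1700, mostly from KRT18, a keratin, which had 937 to 1065 normalized counts with Cyss and 1159 to 1469 without in GFP cells and 769 to 828 with Cyss and 1118 to 1346 without in NRF2 cells. KRT8 (group means 167 to 204) and CLDN4 (13.6 to 17.9) were the others above 10. KRT18 was thus higher without Cyss in both cell types, and its part in the results was not tested. On the first principal component of all genes, GFP without Cyss replicate 3 (3.67) stood apart from the other libraries of its group (-10.5 and -7.52), toward the NRF2 libraries without Cyss (25.2 to 27.3).

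Promoter sequence is shown because the members share a regulator whose binding letters can be looked for. RefSeq promoter windows on GRCh38.p14, from 250 bases before to 50 bases after each start, were found for 27 of the 31 members (not for ACAT2, FDFT1, SQLE and FASN) and were searched on both strands for 3 sets of letters. The sterol regulatory element, searched as TCACNCCAC, was in the windows of 1.39% of all genes and of 1 member, SREBF2. The NF-Y box, CCAAT, was in those of 39.7% of all genes and of 20 of 27 members (74.1%), comprising 13 of 15 sterol arm genes, 5 of 7 fatty acid genes and 2 of 5 regulators. The ARE, searched as TGACNNNGC, was in those of 16.1% of all genes and of 3 members (EBP, HMGCS1 and INSIG2). A match is a description of the letters and not a measured binding site. A missing match does not show that a site is absent, as 1 exact set of letters was searched in a short window. The windows of SREBF2 and of the genes on which the results turn are printed 5′ to 3′ on the strand of the gene, with the matched letters in capitals (ATTGG is CCAAT on the other strand), and the NF-Y window printed is the one nearest to the start.
SREBF2, sterol regulatory element, chr22:41832962-41832990, plus strand: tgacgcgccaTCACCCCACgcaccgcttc
INSIG1, NF-Y box, chr7:155297698-155297722, plus strand: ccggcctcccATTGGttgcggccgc
HMGCS1, NF-Y box, chr5:43313498-43313522, minus strand: accggccgcgATTGGctgtgggagc
HMGCS1, ARE, chr5:43313352-43313380, minus strand: ctctgctgccGCTCGGTCAcgcttggtga
HMGCS1, ARE, chr5:43313256-43313284, minus strand: gcggtgtcctTGACTAGGCccgaaggagc
MVK, NF-Y box, chr12:109573738-109573762, plus strand: gcgcgctctgATTGGctggcctgaa
MVD, NF-Y box, chr16:88663162-88663186, minus strand: ctcgcacgggCCAATcctgtggtag
HSD17B7, NF-Y box, chr1:162790640-162790664, plus strand: gcggactgagATTGGagggatcagc
The MVK window held 5 CCAAT boxes. HMGCS1 has 2 starts in RefSeq, and both of its ARE matches lie before the downstream start and after the upstream start. No window of SREBF1 held any of the 3 sets of letters.

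The members differed widely in level in GFP cells with Cyss. Per kilobase of exon, ACLY, which makes the acetyl-CoA used by both arms, had the most normalized counts (2788 ± 44.3, SD, n = 3), followed by SQLE (2295 ± 62.4) and FDFT1 (2077 ± 90.9), which make squalene and oxidize it, and by INSIG1 (1955 ± 86.1) and SCD (1870 ± 28.6), the desaturase of saturated fatty acids. INSIG1 differed from SCD and from FDFT1 by less than the sum of their SDs. SREBF2 (777 ± 11.9) was above SREBF1 (151 ± 9.39) per kilobase. The lowest were MVK (87.9 ± 3.65), HSD17B7 (61.9 ± 2.72) and TM7SF2, a sterol reductase (7.78 ± 2.04). Lengths were from GENCODE 44 on GRCh37, which may not be the annotation used for counting. In the same annotation 74.1% of the exon bases of CYP51A1, 37.7% of HMGCS1, 36.4% of EBP and 22.2% of ACAT2 are also exons of other genes, and counting took no account of strand and set aside reads that lay wholly in bases shared by genes, so that counts and levels per kilobase of these genes may be too low. FDPS and HSD17B7 have pseudogene copies that could take some of their reads.

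Cyss withdrawal in GFP cells changed the members little. With DEGs defined by an adjusted p under 0.1 and a log2FC over 0.32 in size (edgeR's quasi-likelihood test, Benjamini-Hochberg adjustment over all genes), 0 of 31 members were DEGs in either direction by edgeR and 0 by DESeq2's Wald test, where 1.57% of the 17452 genes tested were higher and 0.533% lower without Cyss. At an unadjusted p under 0.05 there were 12 of 31 members, a larger share than the 3160 of 17452 genes tested. Regardless of fold change, 1 member rose and 3 fell at an adjusted p under 0.1, against 3.11% and 2.81% of all genes. The share that fell (3 of 31) was thus above the share of all genes, and the share that rose was near it. Most members had a slightly negative log2FC (24 of 31), with medians of -0.08 in the regulators, -0.07 in the sterol arm and -0.09 in the fatty acid arm, beside 0.0015 over all genes.

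Among the regulators in GFP cells, SREBF1 rose and INSIG1 fell. SREBF1 had 1169, 1324 and 1242 normalized counts with Cyss and 1506, 1513 and 1378 without Cyss (log2FC 0.24, SE 0.06, adjusted p = 0.038). INSIG1, the sterol-bound anchor of SCAP and itself a gene activated by SREBPs, had 7440, 6812 and 7150 with Cyss and 6397, 6281 and 6350 without (log2FC -0.16, SE 0.04, adjusted p = 0.0396). Neither gene's groups overlapped, but both had passed the test, and the share of all genes without overlap was not counted. In bulk RNA a lower count can mean fewer cells with the transcript or less of it per cell, which cannot be told apart. SREBF2 (log2FC 0.0048, SE 0.04), SCAP (-0.08, SE 0.05) and INSIG2, the paralog of INSIG1 (-0.12, SE 0.06), did not pass the test.

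In the sterol arm of GFP cells, 2 of 18 genes fell at an adjusted p under 0.1, beside 2.81% of all genes. IDI1, the isomerase that makes the allylic isoprene unit, had 3763, 3245 and 3347 normalized counts with Cyss and 2970, 3037 and 2713 without (log2FC -0.24, SE 0.06, adjusted p = 0.0391). LSS, which closes squalene epoxide into lanosterol, had 4350, 4553 and 4457 with Cyss and 3994, 4003 and 3941 without (log2FC -0.16, SE 0.04, adjusted p = 0.035). The groups did not overlap for either gene, which was not counted over all genes. HMGCS1 (log2FC -0.13, adjusted p = 0.107), FADS1 (-0.13, adjusted p = 0.113) and ACSS2 (-0.18, adjusted p = 0.141) missed the threshold, and no gene of the fatty acid arm passed it. These small changes rested on few libraries, as the omission of either replicate 3 of GFP with Cyss or replicate 2 of GFP without Cyss left 0 members that rose and 1 that fell, and without GFP without Cyss replicate 1 there were 6 that fell. Without GFP without Cyss replicate 3, the library that stood apart, 1 rose and 2 fell.

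In NRF2 cells, Cyss withdrawal lowered genes of the mevalonate segment, the steps from acetyl-CoA to farnesyl pyrophosphate, and left most of the fatty acid arm without a passing change. Among 31 members 0 were higher and 3 were lower as DEGs (MVK, MVD and HSD17B7), where 6.81% of the 17266 genes tested were higher and 5.14% lower. Under scaling by library size only, the DEGs over all genes turned from 1176 higher and 887 lower to 936 and 1397, and the members from 3 to 5 lower. Regardless of fold change, 2 members rose and 10 fell, against 15.2% and 13.8% of all genes, so the share that fell (10 of 31) was above the share of all genes and the share that rose below it. DESeq2's Wald test gave 0 higher members too. By edgeR 13 of 31 members had an unadjusted p under 0.05, against 5887 of 17266 genes tested, a smaller share. The median log2FC was -0.13 in the sterol arm, with 17 of 18 values negative, -0.04 in the fatty acid arm and 0.03 in the regulators, beside -0.01 over all genes. The median of the regulators turned to -0.03 under scaling by library size only, which moved the median of all genes to -0.07.

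Genes of the mevalonate segment fell together in NRF2 cells. All 7 of its genes had a negative log2FC, with a median of -0.30. At an adjusted p under 0.1, 6 of them fell (ACAT2, HMGCS1, MVK, MVD, IDI1 and FDPS), beside 13.8% of all genes. PMVK, the kinase after MVK, did not (log2FC -0.13, adjusted p = 0.132). ACAT2 and FDPS missed the threshold without NRF2 with Cyss replicate 2 or 3 or NRF2 without Cyss replicate 2. HMGCS1, MVK, MVD and IDI1 passed in every fit that left out 1 library. MVK, which phosphorylates mevalonate (chr12:110011060-110035930 on GRCh37, plus strand), had 884, 807 and 905 normalized counts with Cyss and 673, 668 and 642 without (log2FC -0.38, SE 0.06, adjusted p = 0.000555). MVD, which decarboxylates the diphosphorylated product (chr16:88718343-88729569, minus strand), had 1750, 1702 and 1840 with Cyss and 1428, 1370 and 1354 without (log2FC -0.35, SE 0.05, adjusted p = 0.000264). Both genes' libraries without Cyss lay below every other library of the study, which was not counted over all genes.

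The other genes of the segment changed by less than the DEG threshold. HMGCS1, the synthase that condenses acetoacetyl-CoA with acetyl-CoA, had 9532, 9990 and 9661 normalized counts with Cyss and 7978, 7955 and 7757 without (log2FC -0.30, SE 0.04, adjusted p = 0.000185). IDI1 had 3180, 3343 and 3233 with Cyss and 2554, 2847 and 2431 without (log2FC -0.31, SE 0.06, adjusted p = 0.00133). In both genes the medium separated the libraries of NRF2 cells, which was not counted over all genes. The 3 NRF2 libraries without Cyss held the lowest HMGCS1 counts of all 12. FDPS, which makes farnesyl pyrophosphate, had 2721, 2786 and 2851 with Cyss and 2505, 2472 and 2639 without (log2FC -0.13, adjusted p = 0.0552). It fell by less, as did ACAT2, the thiolase that starts the pathway (-0.14, adjusted p = 0.0494).

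Between squalene and cholesterol, 2 of 10 genes fell, beside 13.8% of all genes, and the rest did not pass. HSD17B7, a reductase of the removal of the methyl groups at carbon 4 (chr1:162760492-162782613, plus strand), had 289, 291 and 360 normalized counts with Cyss and 223, 224 and 252 without (log2FC -0.42, SE 0.10, adjusted p = 0.00651). LSS had 4932, 4615 and 4740 with Cyss and 4164, 3933 and 4020 without (log2FC -0.23, SE 0.05, adjusted p = 0.00279). The high HSD17B7 value came from NRF2 with Cyss replicate 3. Without that library HSD17B7 (log2FC -0.31, adjusted p = 0.0527) and MVD (-0.32, adjusted p = 0.00468) fell below the fold threshold, which left MVK as the only DEG. SQLE, the epoxidase that follows squalene, had a log2FC of -0.0051 (SE 0.04), and NSDHL one of -0.03 (SE 0.07). SC5D, a sterol desaturase, and STARD4, which carries cholesterol between membranes, passed in no comparison, with log2FC in NRF2 cells of -0.04 (SE 0.05) and -0.07 (SE 0.06). In all, 20 members passed at an adjusted p under 0.1 in at least 1 comparison and 11 in none.

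In the fatty acid arm of NRF2 cells, FADS1, the delta-5 desaturase, fell and ELOVL6, the elongase of palmitate, rose. FADS1 had 5145, 5343 and 5083 normalized counts with Cyss and 4688, 4510 and 4471 without (log2FC -0.18, SE 0.05, adjusted p = 0.011). ELOVL6 had 792, 789 and 751 with Cyss and 870, 814 and 903 without (log2FC 0.15, SE 0.06, adjusted p = 0.0872). Of the fits that left out 1 library, ELOVL6 passed only in that without NRF2 without Cyss replicate 2. It also missed the threshold by DESeq2's Wald test, by library size only, with no filter and with all 12 libraries in the fit. FADS1 passed in all of these fits. ACLY, ACACA and FASN, the core enzymes of palmitate synthesis, had values of -0.0069, -0.0054 and 0.02 with adjusted p from 0.866 to 0.948.

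**Figure D1:**
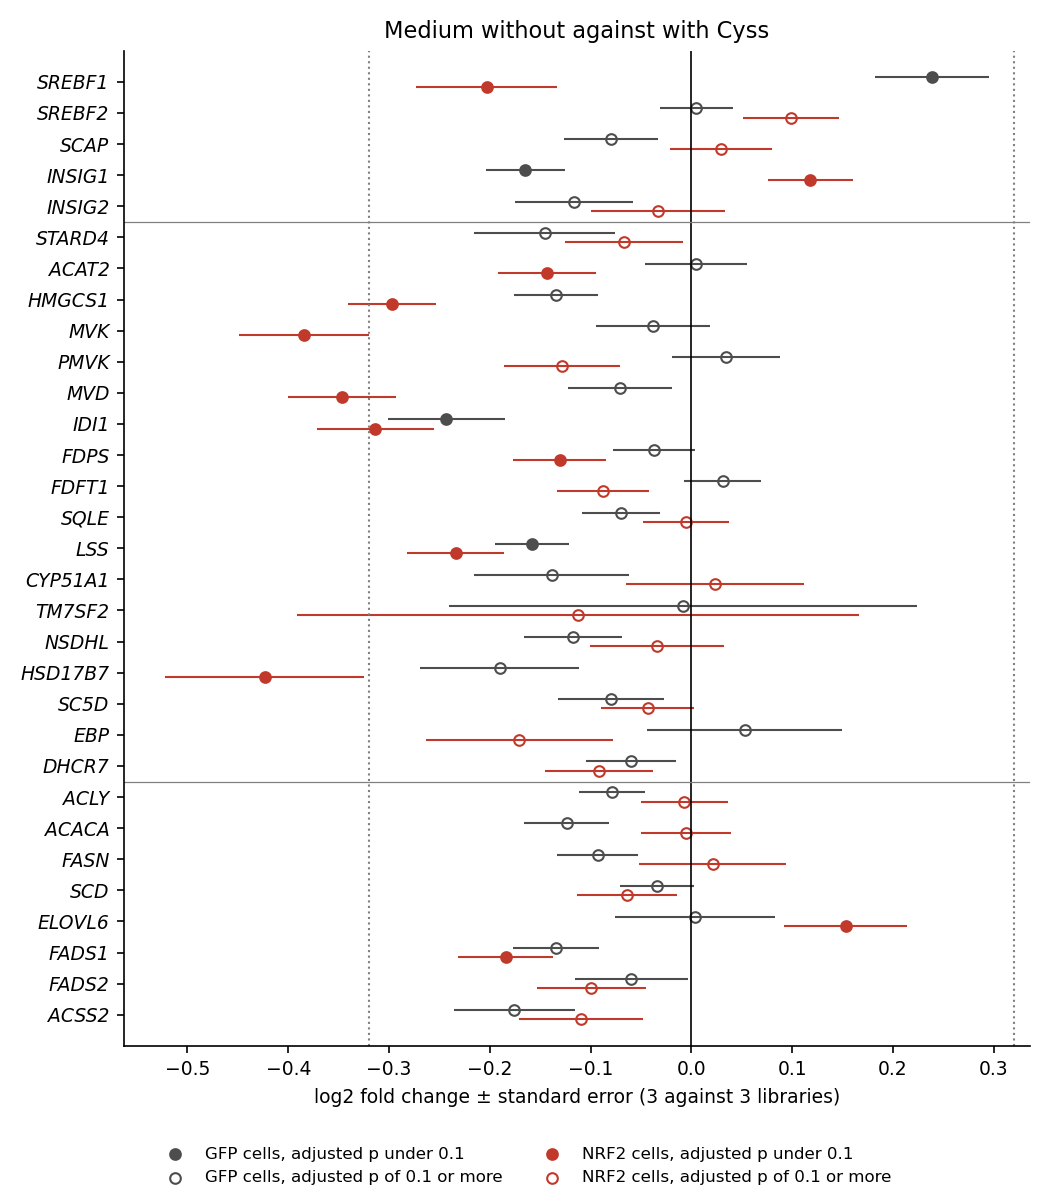
Log2 fold change (x axis) without against with Cyss for each of the 31 members, as point and standard error over 3 against 3 libraries, in GFP cells (grey) and NRF2 cells (red), with filled points for an adjusted p under 0.1, dotted lines at the log2FC threshold of 0.32 and horizontal lines between regulators, sterol arm and fatty acid arm. In NRF2 cells MVK, MVD and HSD17B7 lie beyond the threshold, and SREBF1 and INSIG1 lie on opposite sides of 0 in the 2 cell types.

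The responses of NRF2 and GFP cells differed for 5 members. In the interaction test on all 12 libraries (edgeR), at an adjusted p under 0.1, 1 member had a higher and 4 a lower response in NRF2 than in GFP cells, where 8.97% and 6.13% of the 17674 genes tested did. By library size only, 7 members had a lower response, and the calls over all genes turned from 1585 higher and 1084 lower to 1124 and 1981. SREBF1 rose in GFP cells, whereas in NRF2 cells it had 1755, 1541 and 1655 normalized counts with Cyss and 1572, 1362 and 1352 without, which fell by 0.20 on the log2 scale (SE 0.07, adjusted p = 0.0523) with overlapping libraries, and its responses differed by -0.44 (SE 0.10, adjusted p = 0.00865). INSIG1 fell in GFP cells, whereas in NRF2 cells it had 7223, 7224 and 7424 with Cyss and 7621, 7914 and 8145 without (log2FC 0.12, SE 0.04, adjusted p = 0.0593), a difference of responses of 0.28 (SE 0.05, adjusted p = 0.00367). The differences of responses of both genes passed in all 19 alternatives, whereas the responses within NRF2 cells were less firm. That of INSIG1 was 0.06 (adjusted p = 0.331) by library size only and missed the threshold with no filter on low counts (adjusted p = 0.122) and without NRF2 with Cyss replicate 1, 2 or 3 or NRF2 without Cyss replicate 2 (0.13 to 0.18). That of SREBF1 missed it without NRF2 with Cyss replicate 1 or 3 or NRF2 without Cyss replicate 2 (0.144 to 0.213).

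The other differences lay in the mevalonate segment, where all 7 interaction values were negative, with a median of -0.16 beside -0.01 over all genes. At an adjusted p under 0.1, 3 of the 7 genes had a lower response, beside 6.13% of all genes. The response was lower in NRF2 cells for MVK (difference -0.35, SE 0.08, adjusted p = 0.0166), for MVD (-0.28, SE 0.07, adjusted p = 0.0277) and for HMGCS1 (-0.16, SE 0.06, adjusted p = 0.0964). In GFP cells MVK had 760, 825 and 792 normalized counts with Cyss and 800, 782 and 728 without, and MVD had 1511, 1656 and 1638 with Cyss and 1501, 1602 and 1460 without, with overlapping groups for both. The call for HMGCS1 was lost in 10 of the 12 fits that left out 1 library, all but those without NRF2 without Cyss replicate 1 and without GFP without Cyss replicate 3. HSD17B7 (-0.23, adjusted p = 0.279) and IDI1 (-0.07, adjusted p = 0.669) did not pass, and 0 genes of the fatty acid arm did by edgeR, at an unadjusted p under 0.05 or by DESeq2.

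**Figure D2:**
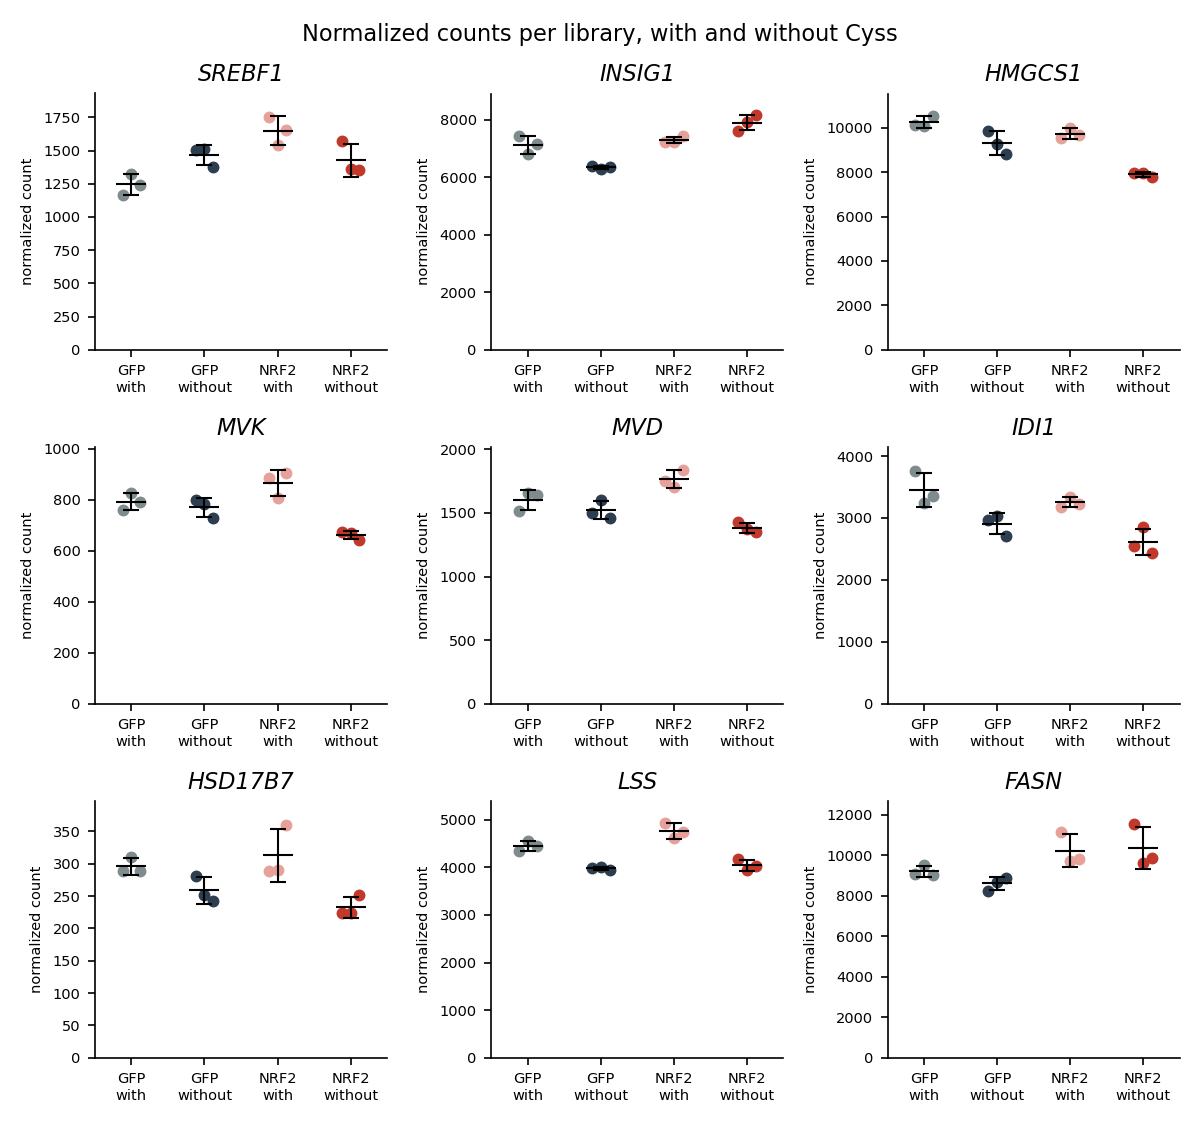
Normalized counts (y axis, from 0) of 9 members in each of the 12 libraries, by cell type and medium (x axis, 3 points a group), with the mean and SD of each group as bars. MVK, MVD and HMGCS1 are lowest in the NRF2 libraries without Cyss, whereas INSIG1 is highest there.

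Exogenous NRF2 raised SREBF1 in medium with Cyss. SREBF1 was the 1 member among the DEGs and 0 were lower, where 1.36% of the 17449 genes tested were higher and 0.201% lower. Its counts of 1755, 1541 and 1655 in NRF2 cells were above the 1169, 1324 and 1242 of GFP cells, without overlap (1.34-fold, log2FC 0.42, SE 0.06, adjusted p = 0.000434), and it was called in each of the 15 alternative settings. Regardless of fold change 7 members were higher and 0 lower, against 4.15% and 2.28% of all genes. These were SREBF1, MVD, DHCR7, the reductase of the last step to cholesterol, and 4 of the 8 fatty acid genes. DESeq2 gave 0 lower members too. By edgeR 11 of 31 members had an unadjusted p under 0.05, against 3321 of 17449 genes tested, a smaller share.

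The fatty acid genes that rose with NRF2 in medium with Cyss were FASN, SCD, FADS1 and FADS2, each by less than the DEG threshold. FADS1 had 5145, 5343 and 5083 normalized counts in NRF2 cells and 4648, 4523 and 4693 in GFP cells (log2FC 0.18, SE 0.04, adjusted p = 0.0103). FASN, the fatty acid synthase, had 11159, 9718 and 9815 in NRF2 cells and 9055, 9521 and 9039 in GFP cells (log2FC 0.16, SE 0.05, adjusted p = 0.0671). The FASN value rested on NRF2 with Cyss replicate 1, without which it was 0.09 (adjusted p = 0.316), and it missed the threshold without GFP with Cyss replicate 3 (adjusted p = 0.222) and with all 12 libraries in the fit (0.225). SCD had 10523, 10898 and 10325 in NRF2 cells and 9682, 9765 and 9973 in GFP cells (log2FC 0.12, adjusted p = 0.063). FADS2, the delta-6 desaturase, had 1550, 1644 and 1651 in NRF2 cells and 1410, 1550 and 1343 in GFP cells (log2FC 0.18, adjusted p = 0.0741), where the lowest NRF2 and the highest GFP library were level. With 1 library left out, SCD and FADS2 passed only without GFP with Cyss replicate 1 or 2. Both were thus lost in more of these fits than FASN. MVD passed only without GFP with Cyss replicate 2, and missed the threshold by DESeq2's Wald test. DHCR7 had 4672, 4187 and 4154 in NRF2 cells and 3564, 3973 and 3671 in GFP cells (log2FC 0.23, SE 0.05, adjusted p = 0.02). The number of members higher depended on single libraries, from 2 without NRF2 with Cyss replicate 1 to 8 without GFP with Cyss replicate 2, with 3 without GFP with Cyss replicate 3 and 4 without NRF2 with Cyss replicate 2 or 3.

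In medium without Cyss, the shares of members that differed between NRF2 and GFP cells at an adjusted p under 0.1 were near those of all genes. No member was a DEG by edgeR (0 higher, 0 lower), where 5.98% of the 17297 genes tested were higher and 4.09% lower, and DESeq2 gave 1 higher (INSIG1) and 0 lower. By library size only, the DEGs over all genes turned from 1034 higher and 708 lower to 876 and 1001. Regardless of fold change 6 members were higher and 5 lower, against 14% and 14.7% of all genes, so neither count sets the members apart. At an unadjusted p under 0.05 there were 15 of 31 members, against 5962 of 17297 genes tested, a smaller share. The 6 higher genes were SREBF2, SCAP, INSIG1, DHCR7, FASN and ELOVL6. The 5 lower genes were all of the sterol arm (ACAT2, HMGCS1, MVK, PMVK and FDFT1). ELOVL6 was lost without NRF2 without Cyss replicate 1 or GFP without Cyss replicate 1 or 2. SREBF2 and SCAP were lost without GFP without Cyss replicate 1, PMVK without GFP without Cyss replicate 2, and MVK without either.

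Among the higher genes in medium without Cyss, INSIG1 lay just under the fold threshold. Its counts of 7621, 7914 and 8145 in NRF2 cells stood above 6397, 6281 and 6350 in GFP cells (log2FC 0.32 rounded, 1.24-fold, SE 0.04, adjusted p = 0.000632). It was called in 6 of 15 alternatives, among them the setting with no threshold on fold change. SREBF2 had 7344, 6767 and 6987 in NRF2 cells and 6227, 6418 and 6128 in GFP cells (log2FC 0.17, adjusted p = 0.0317), and SCAP had 2510, 2350 and 2500 against 2078, 2224 and 2155 (0.19, adjusted p = 0.0232). Neither gene's groups overlapped, which was not counted over all genes. FASN had 11548, 9618 and 9879 in NRF2 cells and 8251, 8701 and 8860 in GFP cells (log2FC 0.27, SE 0.07, adjusted p = 0.0199). The FASN groups did not overlap, although NRF2 without Cyss replicate 1 was well above the other libraries of its group, and all 8 fatty acid genes had a positive log2FC with a median of 0.10. SREBF1 did not pass in this medium (log2FC -0.04, adjusted p = 0.757).

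Among the lower genes, HMGCS1 had 7978, 7955 and 7757 normalized counts in NRF2 cells and 9844, 9281 and 8806 in GFP cells (log2FC -0.24, SE 0.05, adjusted p = 0.00661). ACAT2 had 3032, 3156 and 3269 in NRF2 cells and 3772, 3793 and 3478 in GFP cells (log2FC -0.22, SE 0.05, adjusted p = 0.00817). FDFT1, which makes squalene, had 8805, 9431 and 9797 in NRF2 cells and 10780, 10794 and 10668 in GFP cells (log2FC -0.20, SE 0.05, adjusted p = 0.00937). PMVK had 736, 762 and 748 in NRF2 cells and 837, 882 and 832 in GFP cells (log2FC -0.18, adjusted p = 0.04). The groups of all 4 genes were apart, but these genes were picked by adjusted p, and the share of all genes with groups apart was not counted. The median of the mevalonate segment was -0.18, beside -0.02 over all genes. The number higher ran from 4 without GFP without Cyss replicate 1 to 9 without NRF2 without Cyss replicate 3, and the number lower was 3 without GFP without Cyss replicate 2. The comparisons in each medium and in each cell type share libraries, so they are not independent of each other.

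**Figure D3:**
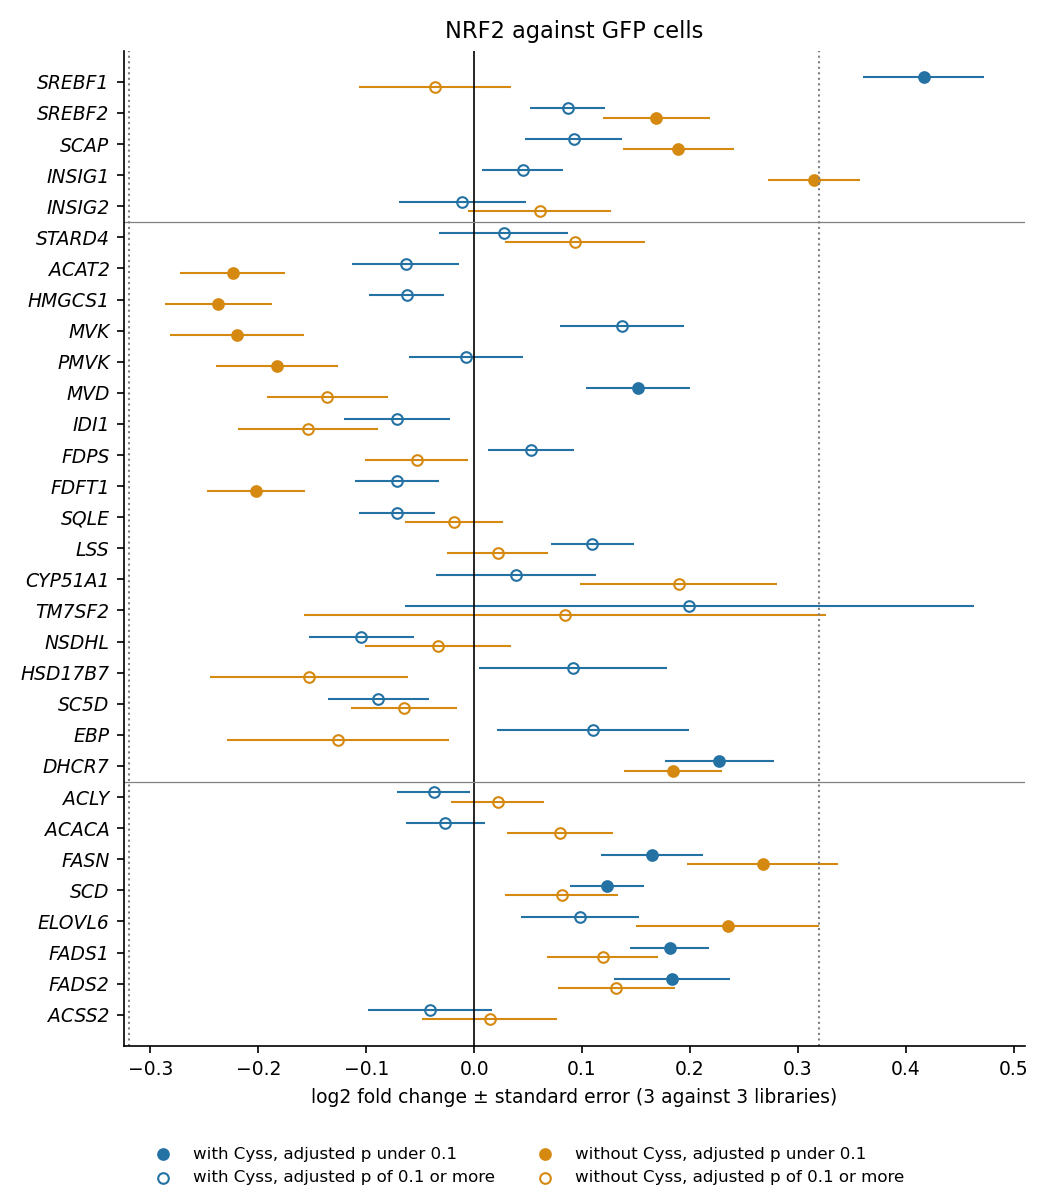
Log2 fold change (x axis) in NRF2 against GFP cells for each of the 31 members, as point and standard error over 3 against 3 libraries, with Cyss (blue) and without Cyss (orange), with filled points for an adjusted p under 0.1 and dotted lines at the log2FC threshold of 0.32. SREBF1 lies beyond the threshold with Cyss and near 0 without, INSIG1 just below it without Cyss, and the mevalonate genes lie below 0 without Cyss.

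The arms were also summarized as the mean over genes of the log2 normalized count in each library, relative to the mean of GFP cells with Cyss, as a description without a test. The sterol arm lay between -0.01 and 0.03 in GFP cells with Cyss, between -0.11 and -0.06 in GFP cells without Cyss, between 0.0057 and 0.04 in NRF2 cells with Cyss and between -0.18 and -0.12 in NRF2 cells without Cyss. The fatty acid arm lay between -0.12 and -0.08 in GFP cells without Cyss and between -0.0049 and 0.06 in NRF2 cells without Cyss. The sterol arm was thus lowest in the NRF2 libraries without Cyss, and the fatty acid arm in the GFP libraries without Cyss.

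**Figure D4:**
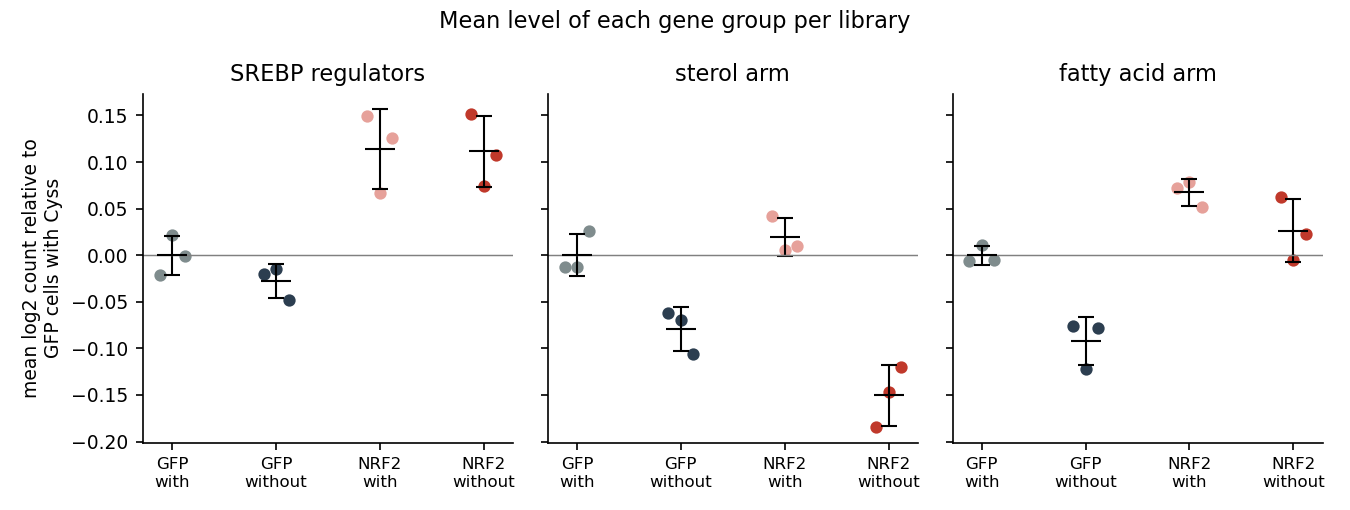
Mean log2 normalized count of the genes of each arm in each library, relative to GFP cells with Cyss (y axis), for the 5 regulators, 18 sterol arm genes and 8 fatty acid genes by cell type and medium (x axis), with the mean and SD of each group as bars. The NRF2 libraries without Cyss are lowest for the sterol arm, at -0.18 to -0.12.

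Beyond the members, 55 genes in 5 further lists of lipid metabolism were counted. In GFP cells without Cyss the single DEG of 52 genes tested was MID1IP1, which promotes acetyl-CoA carboxylase activity. It was higher, where 1.57% of all genes were higher and 0.533% lower. It had 1591, 1610 and 1535 normalized counts with Cyss and 1783, 2112 and 2287 without (log2FC 0.39, SE 0.07, adjusted p = 0.0104), and without GFP without Cyss replicate 3 its log2FC was 0.30, under the threshold. It was also a DEG in NRF2 cells (log2FC 0.52, SE 0.05, adjusted p = 6.76e-06), and the responses did not differ at the threshold (difference 0.13, adjusted p = 0.452). With exogenous NRF2 in medium with Cyss, 0 of the 52 genes tested were DEGs by edgeR or by DESeq2, and 14 had an unadjusted p under 0.05, where 1.36% of all genes were higher and 0.201% lower as DEGs and 3321 of 17449 had such a p.

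Of 7 other sterol genes, 1 was higher and 2 lower as DEGs in NRF2 cells without Cyss, beside 6.81% and 5.14% of all genes. TMEM97, a sterol-responsive regulator of cholesterol transport, had 2044, 2102 and 2049 normalized counts with Cyss and 1619, 1605 and 1646 without (log2FC -0.34, SE 0.05, adjusted p = 7.91e-05). LBR, the lamin B receptor with sterol reductase activity, was lower too (log2FC -0.33, SE 0.06, adjusted p = 0.000728). Both fell in GFP cells as well, by less than the fold threshold (-0.29, adjusted p = 0.00133, and -0.31, adjusted p = 0.00556), and the responses did not differ at the threshold (adjusted p = 0.644 and 0.922). NPC1, which moves cholesterol out of lysosomes, rose (log2FC 0.34, SE 0.05, adjusted p = 0.000102), and its response was higher than in GFP cells (difference 0.28, adjusted p = 0.0168). LBR fell below the fold threshold without NRF2 with Cyss replicate 2 (log2FC -0.30) or NRF2 without Cyss replicate 3 (-0.28), and NPC1 without NRF2 without Cyss replicate 3 (0.31).

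The changes of largest size were in the list of oxysterol and liver X receptor (LXR) genes, of which 7 of 9 were tested. ABCA1, the cholesterol exporter activated by LXRs, had 370, 419 and 393 normalized counts in NRF2 cells with Cyss and 813, 864 and 860 without (2.15-fold, log2FC 1.10, SE 0.07, adjusted p = 2.41e-08). In GFP cells it had 413, 379 and 356 with Cyss and 403, 371 and 517 without (log2FC 0.17, adjusted p = 0.413), the high value being that of the library that stood apart. The response was higher in NRF2 cells by 0.93 (SE 0.13, adjusted p = 0.000671), and without Cyss NRF2 cells had more ABCA1 than GFP cells (log2FC 0.97, SE 0.10, adjusted p = 0.000224). MYLIP, another LXR target, which encodes a ubiquitin ligase, moved in the opposite direction, with 375, 420 and 380 in NRF2 cells with Cyss and 257, 217 and 196 without (log2FC -0.81, SE 0.10, adjusted p = 3.97e-05). Its response was lower than in GFP cells by -0.65 (SE 0.13, adjusted p = 0.00589), and without Cyss its counts in NRF2 cells were below those in GFP cells (log2FC -0.71, SE 0.11, adjusted p = 0.00173).

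The remaining lists held few DEGs. Of 9 genes of the isoprenoid branch, 0 were DEGs by edgeR or by DESeq2 in any comparison of groups, and 3 had an unadjusted p under 0.05 in NRF2 cells without Cyss, a share like that of all genes (5887 of 17266). Of 19 other fatty acid and glycerolipid genes tested, MID1IP1 and ACSL4, which activates long polyunsaturated fatty acids, were DEGs in NRF2 cells without Cyss. Both were higher and 0 genes of the list were lower, beside 6.81% and 5.14% of all genes. ACSL4 had 5268, 5228 and 5166 normalized counts with Cyss and 6820, 6912 and 6017 without (log2FC 0.34, SE 0.06, adjusted p = 0.000581), and its response was higher than in GFP cells by 0.47 (SE 0.09, adjusted p = 0.00449). The fold threshold was missed by ACSL4 without NRF2 without Cyss replicate 1 (0.31) or 2 (0.30).

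**Figure D5:**
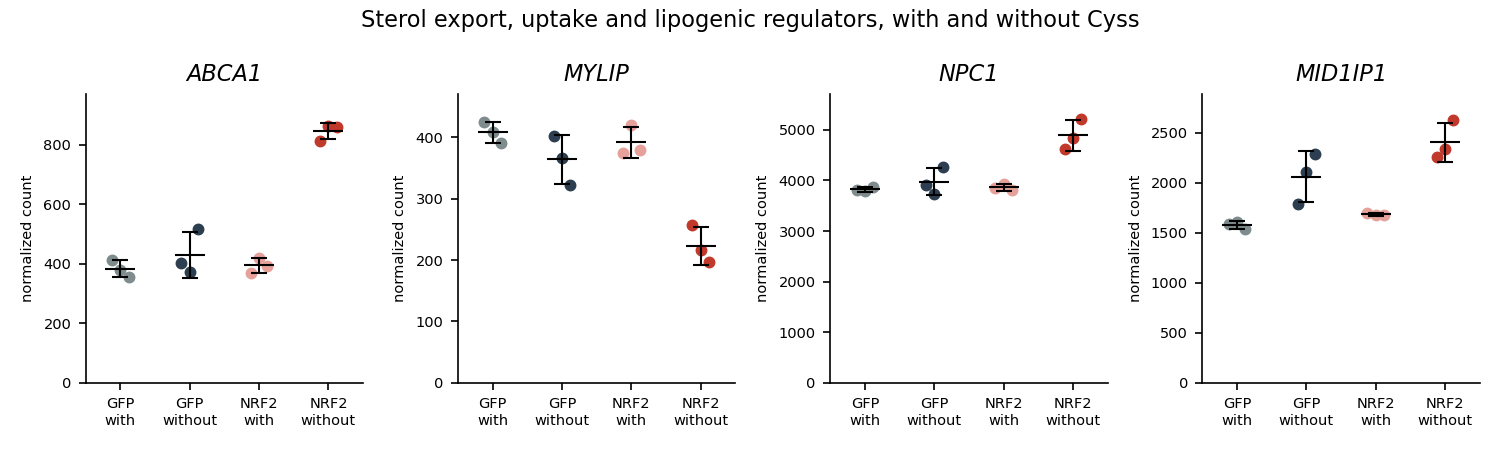
Normalized counts (y axis, from 0) of ABCA1, MYLIP, NPC1 and MID1IP1 in each of the 12 libraries, by cell type and medium (x axis), with the mean and SD of each group as bars. In NRF2 cells without Cyss, ABCA1 lies between 813 and 864 and MYLIP between 196 and 257, apart from every other library.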

How the data were processed

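Total RNA of Hs 578T cells was sequenced single end (TruSeq RNA v2, Illumina NextSeq). The authors mapped the reads to hg19 with TopHat 2.1.0, counted them per gene symbol on exons with HTSeq 0.11.2 without regard to strand, and deposited raw counts for 12 libraries. The annotation used for counting is not given in the sources used here. Of 55765 symbols, 523 rRNA genes were removed, as in the study's methods.

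Software was edgeR 4.0.16, limma 3.58.1 and, as an alternative, DESeq2 1.42.0 in R 4.3.3, and Python 3.11.15 with matplotlib 3.10.9. For each of 4 comparisons, 6 libraries were TMM-scaled, genes below a mean of 10 normalized counts in both groups were dropped, scaling was repeated on the others, and edgeR's quasi-likelihood test was applied with Benjamini-Hochberg adjustment. The interaction was fitted on 12 libraries. Counts shown per library were scaled over 12 libraries. Count intervals are not given, as the spread between libraries is used. No pair of replicates differed by as little as sampling noise. Scripts were tested on simulated data.

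Per-library values were set for up to 14 members, those of smallest adjusted p, and are given for all 20 that passed in a comparison, in at least 1 of those where each passed, and from the other lists up to 3 DEGs per comparison were named by smallest adjusted p. The members and lists were chosen with earlier results of these data known, so no count is independent evidence. Alternatives were DESeq2's size factors, library size only, DESeq2's Wald test, filterByExpr, no filter, 12 libraries in the fit, other thresholds, a replicate block and the omission of each library in turn. Some genes of the list of SREBP processing are not reported here.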

Additional observations from a re-analysis of the deposited data

Results flagged for a closer look

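By the interaction test (edgeR, 12 libraries, adjusted p under 0.1), the response to Cyss withdrawal differed between NRF2 and GFP cells for 5 members. It also differed for genes of the other lists. Over all 17674 genes tested, 8.97% had a higher and 6.13% a lower response in NRF2 cells. Among the members, the difference of log2 responses (NRF2 minus GFP cells) was -0.44 for SREBF1, 0.28 for INSIG1, -0.35 for MVK, -0.28 for MVD and -0.16 for HMGCS1, with adjusted p from 0.00367 (INSIG1) to 0.0964 (HMGCS1).

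Among sterol and isoprenoid genes it was -0.31 for C14orf1 (adjusted p = 0.0237), a scaffold of sterol demethylation, 0.28 for NPC1 (0.0168), 0.37 for NUS1 (0.0312), a subunit of the transferase that makes dolichol, and 0.28 for PDSS2 (0.0652), of the coenzyme Q side chain. For PAQR3, of the list of SREBP processing, it was 0.30 (0.0882). It was 0.93 for ABCA1 (0.000671) and -0.65 for MYLIP (0.00589). Among fatty acid genes it was 0.18 for ACSL3 (0.0873) and 0.47 for ACSL4 (0.00449). The call for HMGCS1 was lost in 10 of the 12 fits that left out 1 library, and those for PDSS2, PAQR3 and ACSL3 in 6, 9 and 7 of them and under scaling by library size only.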

How the results depend on the processing

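No member or listed gene that was called changed direction in any alternative tried. With no threshold on fold change, the members called went from 0 to 1 higher and from 0 to 3 lower in GFP cells, from 0 to 2 and from 3 to 10 in NRF2 cells, from 1 to 7 higher for NRF2 with Cyss and from 0 to 6 higher and 0 to 5 lower without Cyss. By library size only, 5 members were lower in NRF2 cells and 7 had a lower response, and the medians for regulators, sterol and fatty acid arm became -0.029, -0.19 and -0.094 in NRF2 cells and 0.14, -0.13 and 0.068 for NRF2 without Cyss. INSIG1 was called for NRF2 without Cyss (1 member higher) with DESeq2's size factors, DESeq2's Wald test and all 12 libraries in the fit. Leaving out 1 library at a time gave 1 to 4 members lower in NRF2 cells (1 without NRF2 with Cyss replicate 3), 0 to 2 higher for NRF2 without Cyss and 1 to 2 with a higher response. It moved the medians for GFP cells between -0.11 and -0.042 (regulators) and between -0.11 and -0.072 (fatty acid arm), that of the fatty acid arm in NRF2 cells between -0.081 and -0.0024, those for NRF2 with Cyss between -0.014 and 0.040 (sterol arm, 0.03 with all libraries) and between 0.088 and 0.13 (fatty acid arm), and those for NRF2 without Cyss between 0.13 and 0.20 (regulators), between -0.10 and -0.066 (sterol arm) and between 0.083 and 0.13 (fatty acid arm). Deviations of same-numbered libraries correlated between -0.05 and 0.14, beside -0.17 to 0.10 for the other pairs. With 3 libraries per group this cannot settle whether the replicate numbers pair the libraries. With the number as a block, the counts of members called were the same. These were 3 lower in NRF2 cells, 1 higher for NRF2 with Cyss, and 1 and 4 in the interaction. Over all genes, the block turned the interaction calls from 1585 higher and 1084 lower to 1866 and 1307. Of the alternative values of counts and medians, 273 stayed within 1.5 times the count or the spread of the median, 24 medians moved by more, 16 counts were higher by more and 1 was lower. The cause of the other changes was not tested. TM7SF2, with 18.8 to 41.2 normalized counts, had an SE of at least 0.23 and allows no statement on small changes.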
